A study of Mus musculus with 3 samples.

Results

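Metallothioneins and zinc handling were followed through 5 genes of the 32285 in the deposited matrices: the metallothioneins Mt1 and Mt2, the metal-sensing transcription factor Mtf1, the zinc importer Slc39a14 (ZIP14) and the zinc exporter Slc30a1 (ZnT1). The genes were taken by symbol. Mt1 was chosen for its higher level at 6 h, so the values of Mt1 below are a description, and the gene's own difference supports nothing. UMIs (unique molecular identifiers, each standing for a captured mRNA molecule) were counted in endothelial cell (EC) barcodes. These were droplet barcodes with 1000 to 5000 detected genes, under 20% mitochondrial UMIs and at least 2 UMIs of the endothelial genes Pecam1 and Cdh5 together. There were 11231 EC barcodes of 15660 barcodes with 300 or more genes in the control library, 10583 of 15100 in the 6 h library and 9278 of 13082 in the 30 h library.

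The libraries came from lungs of wild-type C57BL/6 mice in a study of lung ECs during colonization by melanoma. Control mice received PBS and were taken at 6 h. The other mice received 200000 B16-F10 cells, a mouse melanoma line, in 100 µl through the tail vein and were taken at 6 h or 30 h. The labels give 2 mice per treatment, which differs from the study's methods, and Pecam1+ Ptprc- cells were sorted after a warm collagenase digestion. The 6 h library also received sorted melanoma cells, and no PBS library taken at 30 h was analysed here, so time and treatment cannot be told apart at 30 h. With 1 library per group there was no replicate check and no test. Intervals are 95% intervals of counting error only, and the comparisons share libraries.

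Metallothioneins are small cysteine-rich proteins that bind zinc and copper and buffer the free zinc of a cell. MTF1 binds DNA when zinc is high and switches on Mt1, Mt2 and Slc30a1, whose product moves zinc out of the cytosol. ZIP14 moves zinc, and also iron and manganese, into it. Metallothionein genes also respond to glucocorticoids, cytokines and oxidants, which makes them general stress genes in many tissues.

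The promoters of the metallothioneins and of Slc30a1 are shown because MTF1 is known to control all 3 genes. RefSeq windows of 250 bases before to 50 bases after the start of transcription (build GRCm38.p6) were found for 4 of the 5 genes, and they were searched on both strands for the core of the metal response element, TGCACNC or TGCGCNC. Capitals mark the matches.
Mt1 promoter, chr8:94178839-94179138, plus strand: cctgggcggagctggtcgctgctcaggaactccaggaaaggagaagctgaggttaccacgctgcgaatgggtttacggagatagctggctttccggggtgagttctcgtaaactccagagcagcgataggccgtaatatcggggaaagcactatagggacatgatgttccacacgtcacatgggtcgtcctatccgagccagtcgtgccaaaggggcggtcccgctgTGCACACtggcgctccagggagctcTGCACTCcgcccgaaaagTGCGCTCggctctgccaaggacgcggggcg
Mt2 promoter, chr8:94172368-94172667, plus strand: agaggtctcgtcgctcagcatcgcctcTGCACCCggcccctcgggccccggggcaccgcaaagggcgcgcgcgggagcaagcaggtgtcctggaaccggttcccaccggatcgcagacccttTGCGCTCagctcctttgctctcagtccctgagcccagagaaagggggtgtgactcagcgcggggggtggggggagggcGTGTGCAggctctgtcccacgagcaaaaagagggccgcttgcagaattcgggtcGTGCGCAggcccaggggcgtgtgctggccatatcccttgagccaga
Slc30a1 promoter, chr1:191906531-191906830, plus strand: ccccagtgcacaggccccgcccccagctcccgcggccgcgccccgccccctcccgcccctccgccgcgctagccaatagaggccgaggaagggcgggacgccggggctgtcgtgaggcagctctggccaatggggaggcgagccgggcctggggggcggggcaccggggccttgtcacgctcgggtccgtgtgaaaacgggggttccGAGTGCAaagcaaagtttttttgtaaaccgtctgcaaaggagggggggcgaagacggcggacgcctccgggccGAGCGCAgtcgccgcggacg
The Mt1 window held 3 matches, the Mt2 window 4 and the Slc30a1 window 2, and the Mtf1 window held 0. Of 32851 promoters in the table, 25.7% held at least 1 match, 7.11% at least 2, 1.97% at least 3 and 0.517% at least 4. The STAT element TTCNNNGAA, the heat shock element GAANNTTC and the E-box CACGTG had no match in the 4 windows. The antioxidant element TGACNNNGC matched at 1 place in Mt2 and at 1 in Slc30a1, and in 12.4% of all promoters. A match is a description of letters and not of a bound site. Elements outside these windows were not looked for.

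In the annotation of the same genome (GENCODE M21, GRCm38) Mt2 and Mt1 lay 5513 bases apart on chromosome 8, Mt2 at 94172664 to 94173568 and Mt1 at 94179082 to 94180327, both on the plus strand. Their transcripts shared no stretch of 50 bases with each other. The other genes lay at 124802104 to 124849800 on chromosome 4 (Mtf1, plus strand), 70303469 to 70351425 on chromosome 14 (Slc39a14, minus strand) and 191906767 to 191913247 on chromosome 1 (Slc30a1, plus strand). Mt2, Mtf1 and Slc30a1 overlapped a gene model on the opposite strand, and Mtf1 also overlapped n-R5s192 on its own strand. How the counting treated strand is not given in the sources used here.

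The EC barcodes had medians of 7782 UMIs (control), 8033 (6 h) and 8675.5 (30 h). Their endothelial markers Pecam1, Cdh5, Cldn5, Tie1 and Egfl7 lay between 211 and 2611 CPM (UMIs per 1e+06 UMIs of the same barcodes), and the leukocyte gene Ptprc between 3.16 and 6.53 CPM. Between 22 and 38 EC barcode sequences were shared by a pair of libraries, at most 0.399% of the smaller library. At least 2 markers of epithelial cells (of Epcam, Sftpc, Sftpb, Scgb1a1 and Cyp2f2) were found in 41.3% of EC barcodes of the control library, in 19.2% at 6 h and in 13.2% at 30 h. The summed level of those markers was 763, 565 and 348 CPM, with Epcam itself under 1 CPM in each library. Summed melanoma markers were at 1.67, 14.7 and 1.34 CPM and immune markers at 85.4, 116 and 63.2 CPM. Platelet markers were at 139, 170 and 140 CPM and mesenchymal markers at 33.8, 26.2 and 30.7 CPM. Melanoma, immune and platelet markers were thus highest at 6 h, epithelial and mesenchymal ones in the control. The part of such RNA in the metallothionein levels was not tested.

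Mt1 and Mt2 were higher in the EC barcodes of the 6 h library and lower in those of the 30 h library than in the control. The Mt1 level was 17.7 CPM in the control (1611 UMIs, interval 16.9 to 18.6), 54.9 CPM at 6 h (4791 UMIs, 53.3 to 56.4) and 3.28 CPM at 30 h (267 UMIs, 2.90 to 3.69). The Mt2 level was 3.78 CPM (343 UMIs, 3.39 to 4.20), 15.4 CPM (1347 UMIs, 14.6 to 16.3) and 0.982 CPM (80 UMIs, 0.778 to 1.22). Both genes thus had the same order, with 6 h highest and 30 h lowest. The intervals leave out the uneven spread over barcodes given below, and Mt1 was chosen for its level at 6 h. No support is therefore drawn from them.

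The Mt1 level at 6 h was 3.09 times that of the control, a log2 ratio of 1.63 (1.55 to 1.71), and the Mt2 level 4.09 times, a log2 ratio of 2.03 (1.86 to 2.21). At 30 h the Mt1 level was 5.41-fold lower than in the control, a log2 ratio of -2.44 (-2.63 to -2.25), and Mt2 3.85-fold lower, at -1.94 (-2.31 to -1.59). The size of these differences depended on the barcodes taken. At 6 h the log2 ratio was 2.63 for Mt1 and 3.32 for Mt2 in EC barcodes that passed no class gate, and for Mt2 2.69 in general capillary-like barcodes and 2.80 without the 1% of barcodes with most Mt2 UMIs. At 30 h it was -1.12 for Mt1 and -1.18 for Mt2 in barcodes of 300 or more genes and -1.66 and -0.89 in EC barcodes that passed no class gate. Between 6 h and 30 h the levels differed 16.7-fold for Mt1 and 15.7-fold for Mt2, with log2 ratios of -4.07 and -3.97. As a background, 2.06% of the 10175 genes that averaged 5 CPM or more over the libraries were past 1.5-fold higher at 6 h than in the control and 1.36% past 1.5-fold lower. At 30 h against the control the shares were 4.85% higher and 5.01% lower, and at 30 h against 6 h they were 5.21% higher and 5.28% lower. Mt1 and Mt2 were past 1.5-fold in each comparison, but Mt1 was chosen on its difference and Mt2 averaged 5 CPM only through the 6 h library, so nothing is read from these calls. Mtf1, Slc39a14 and Slc30a1 were past it in none.

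The 2 remaining mouse metallothionein genes were close to absent. Mt3 had 3, 1 and 0 UMIs and Mt4 1, 1 and 0 UMIs in the EC barcodes of the control, 6 h and 30 h libraries. The count of 0 at 30 h allows a level of up to 0.0368 CPM at a floor of 3 counts per library.

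Metallothionein mRNA was also present outside cells, and at a higher level than inside the EC barcodes. In empty droplets, taken as barcodes of 1 to 100 UMIs, the Mt1 level was 99.1 CPM in the control, 251 CPM at 6 h and 36.8 CPM at 30 h. The Mt2 level there was 18.3, 47.6 and 5.36 CPM. The empty droplets had the same order as the EC barcodes, with log2 ratios against the control of 1.34 (1.16 to 1.53) at 6 h and -1.43 (-1.69 to -1.17) at 30 h for Mt1, and of 1.38 (0.95 to 1.83) and -1.77 (-2.46 to -1.12) for Mt2. For both genes the log2 ratio against the control was farther from 0 in the EC barcodes than in these empty droplets, although the intervals of Mt2 at 30 h overlapped. With droplets of 1 to 50 UMIs this did not hold for Mt2 at 30 h. Its level there was 13.0 CPM in the control and 1.38 CPM at 30 h, the latter on 4 UMIs. The empty droplets held Mtf1 at 24.5, 29.4 and 19.6 CPM, Slc39a14 at 8.17, 13.5 and 8.50 CPM and Slc30a1 at 70.4, 80.3 and 72.3 CPM. The level in EC barcodes was 1.22, 1.06 and 1.35 times that in empty droplets for Mtf1, 1.47, 0.907 and 1.64 times for Slc39a14, and 1.11, 0.987 and 1.22 times for Slc30a1.

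**Figure D1:**
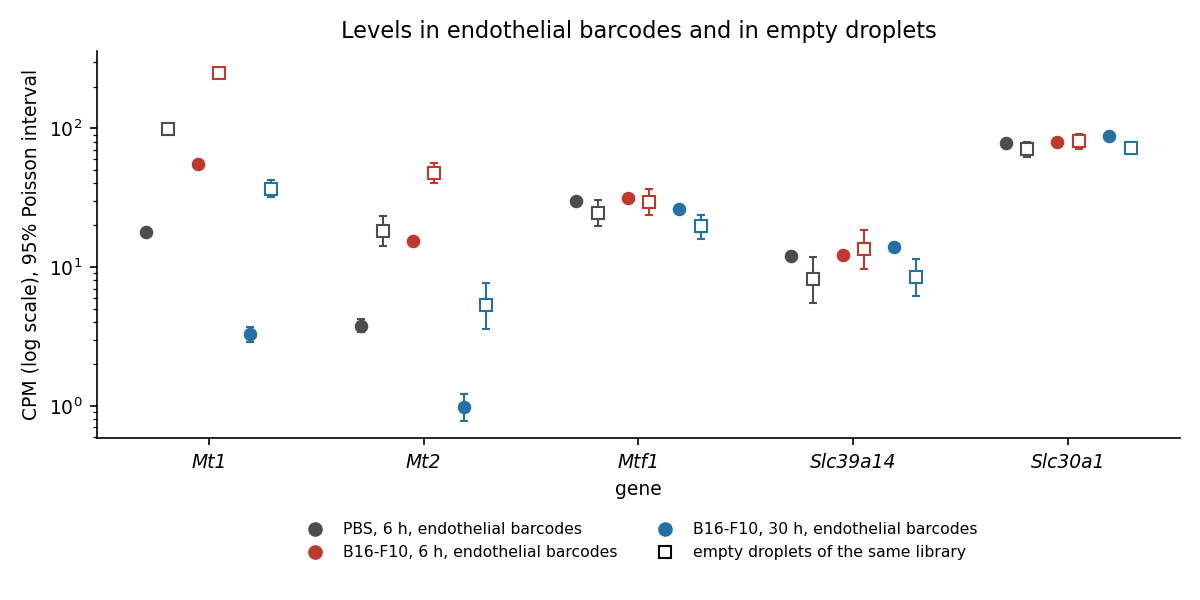
Levels of the 5 genes in CPM (log axis) in EC barcodes (filled circles) and in empty droplets of the same library (open squares), by library, with 95% Poisson intervals. Mt1 and Mt2 lie highest at 6 h and lowest at 30 h in both kinds of droplet, and lie higher in empty droplets (99.1 CPM for Mt1 in the control) than in EC barcodes (17.7 CPM). For the other genes the EC level is between 0.907 and 1.64 times that of the empty droplets.

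The EC barcodes held Mt1 at 17.9% of its level in empty droplets in the control, at 21.8% at 6 h and at 8.91% at 30 h. For Mt2 these values were 20.6%, 32.4% and 18.3%. The haemoglobin genes, taken here as not made by ECs, gave a yardstick of 12.0%, 12.0% and 11.6%. The yardstick of 5 epithelial genes was 8.83%, 9.39% and 5.89%, ranging from 5.96% to 17.8%, 6.85% to 19.3% and 3.95% to 9.49% from gene to gene. The Mt1 value lay above the haemoglobin value in the control and at 6 h and below it at 30 h. With droplets of 1 to 50 UMIs taken as empty, the EC level of Mt1 was 0.225, 0.281 and 0.117 times that of the empty droplets. The haemoglobin gene Hba-a1 was then at 0.241, 0.227 and 0.256 times and Hbb-bs at 0.191, 0.191 and 0.259 times, so that Mt1 was again above both at 6 h and below both at 30 h, but between them in the control. With droplets of 10 to 200 UMIs Mt1 was at 0.0998, 0.12 and 0.0680 times, above both genes in the control and at 6 h (0.0470 to 0.0491) and below both at 30 h (0.0845 and 0.0832). The epithelial gene Scgb1a1 lay above Mt1 at 6 h with droplets of 1 to 50 UMIs (0.349 times). For Mt2 the droplets of 1 to 50 UMIs gave 0.290, 0.395 and 0.712 times, so that 30 h was highest, on 4 Mt2 UMIs in those droplets. By the haemoglobin share, free RNA would give the EC barcodes 11.9, 30.1 and 4.25 CPM of Mt1. At 30 h this exceeds the 3.28 CPM that was found, so the share cannot hold for Mt1 in that library. EC barcodes with fewer than 5 Mt1 UMIs, a set selected on Mt1 itself, held 7.89, 17.5 and 2.42 CPM. How much of the Mt1 was free RNA was not determined.

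Few EC barcodes carried the metallothionein mRNA. At least 1 Mt1 UMI was found in 5.52% of EC barcodes in the control (620 barcodes), 12.0% at 6 h (1269) and 1.81% at 30 h (168). After thinning of each barcode to 2000 UMIs, which left out between 111 and 197 shallower barcodes per library, the shares were 1.96% (1.71 to 2.23), 5.13% (4.72 to 5.57) and 0.513% (0.377 to 0.681). The thinned shares of Mt2 were 0.607% (0.471 to 0.770), 1.82% (1.57 to 2.096) and 0.142% (0.0755 to 0.242). No cell type of these lungs was known to lack Mt1, so the share in barcodes of other lineages was no measure of background. After thinning that share was 25.5%, 25.4% and 21.2% of 98, 114 and 113 barcodes. Thinning left out 311 of 409, 416 of 530 and 342 of 455 of the other-lineage barcodes. Their unthinned shares were 11.5%, 13.8% and 11.0%, so the thinned shares cover only the deeper barcodes of a mixed set.

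The UMIs were unevenly spread over the EC barcodes. The 1% of EC barcodes with most Mt1 UMIs held 65.3% of them in the control, 60.0% at 6 h and 71.9% at 30 h. The variance of the UMIs per barcode was 37.0, 82.8 and 3.99 times the mean, against 1.19, 1.22 and 1.22 times for Mtf1. Poisson intervals of the metallothioneins are therefore too narrow. The 3 highest barcodes held 197, 75 and 70 Mt1 UMIs in the control, 529, 173 and 122 at 6 h, and 19, 13 and 8 at 30 h. Without the highest 1% the log2 ratio of Mt1 was 1.83 at 6 h and -2.74 at 30 h. With each thinned barcode counted at most once it was 1.43 and -1.71. The order of the libraries was the same both ways, and it was also that of the empty droplets. Both ways were chosen after the values were seen, so this is a description only.

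**Figure D2:**
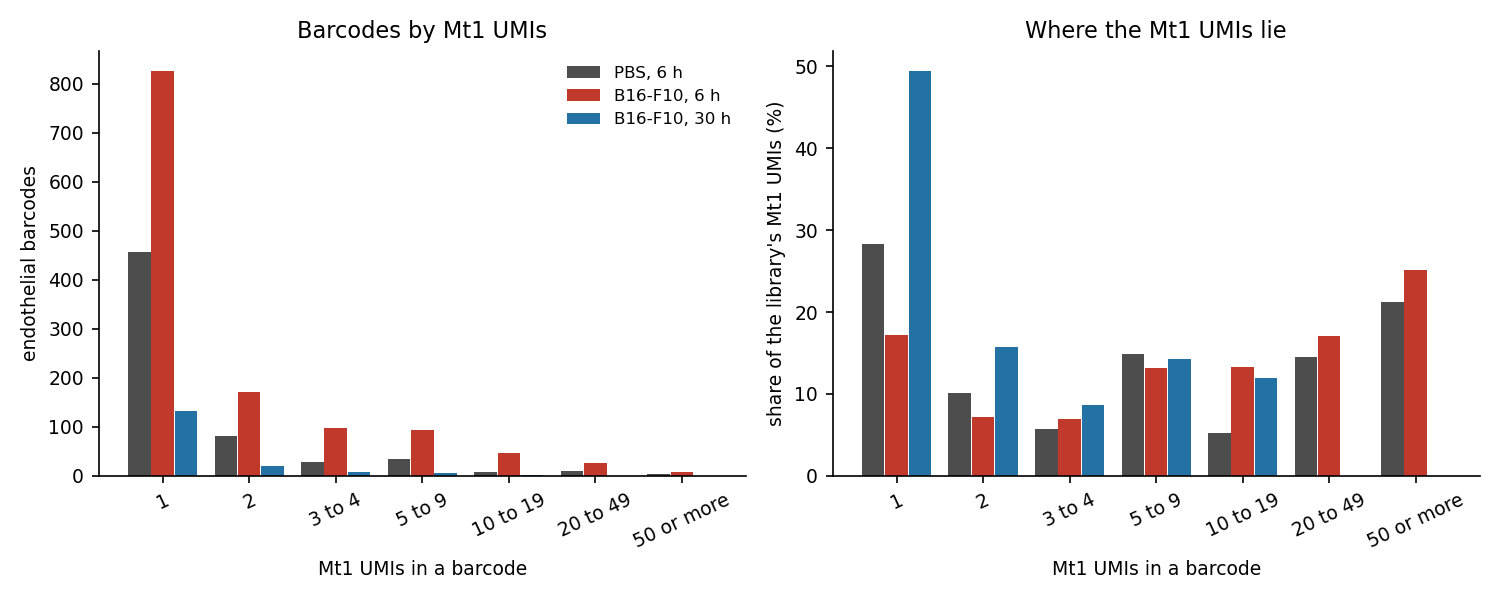
Left, the number of EC barcodes by their Mt1 UMIs in each library, and right, the share of the library's Mt1 UMIs that each bin holds (%), barcodes without an Mt1 UMI left out. At 6 h 826 barcodes held 1 UMI and 8 held 50 or more, those 8 holding 25.1% of the UMIs, while at 30 h no barcode held 20 or more.

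At least 5 Mt1 UMIs were found in 54 EC barcodes of the control, 174 at 6 h and 8 at 30 h, a limit chosen after the values were seen. These barcodes held 55.8%, 68.6% and 26.2% of the Mt1 UMIs. At 6 h their Mt1 level was 1912 CPM against 17.5 CPM in the other EC barcodes, and their Mt2 level was 531 against 5.06 CPM, a gene that the limit did not use. Mt2 was detected in 69.5% of them. Their Slc39a14 level was 19.8 CPM against 12.1 CPM, while Mtf1 was at 39.0 against 31.1 CPM and Slc30a1 at 75.0 against 79.4 CPM. Of the 174 barcodes, 39.7% carried at least 2 markers of another lineage, against 28.3% of the other EC barcodes, and mesenchymal markers (Col1a1, Col1a2, Pdgfra, Pdgfrb, Cspg4, Dcn) were found in 14.9% against 1.44%. In the control 66.7% of the 54 barcodes carried such markers, against 46.5%, and in 27.8% against 1.74% the markers were mesenchymal. At 6 h at least 2 melanoma markers were found in 6 of the 174 barcodes and in 38 of the 10409 other EC barcodes. At least 2 epithelial markers were found in 17.2% against 19.3%. The 174 barcodes were deeper, with a median of 9963.5 against 8016 UMIs, which can raise the detection of markers. How far RNA of other cells in these barcodes made their Mt1 level was not tested.

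Other genes stood out in the 174 barcodes by level, as a description of barcodes selected on Mt1. Among the 15 with the highest fold, Tubb6 (a tubulin) was at 264 CPM against 12.9 CPM and detected in 50.0% of these barcodes. Fosl1, an AP-1 transcription factor, was at 127 against 6.59 CPM and detected in 32.2%, Cxcl14 at 152 against 6.35 CPM in 26.4% and Timp1, an inhibitor of matrix proteases, at 66.3 against 3.17 CPM in 23.0%. The neutrophil genes S100a8 and S100a9 also ranked there, but were detected in only 4.02% and 3.45% of the barcodes. Fosl1 had 0 UMIs in the 54 control barcodes with at least 5 Mt1 UMIs, a small set, and its level in the other control EC barcodes was 1.04 CPM.

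In the control and at 6 h Mt1 and Mt2 were found together in a barcode more often than the product of their shares gives. After thinning, both were detected in 0.217% of EC barcodes in the control (24 barcodes), 0.972% at 6 h (101) and 0.0109% at 30 h (1). The products of the single shares were 0.0119%, 0.0934% and 0.000727%. Without thinning, 42.7%, 53.7% and 26.1% of the barcodes with an Mt2 UMI also held an Mt1 UMI, and 11.8%, 18.4% and 7.14% of those with an Mt1 UMI held an Mt2 UMI, so most barcodes with Mt1 showed no Mt2. The ratio of Mt1 to Mt2 UMIs, which was not corrected for transcript length, was 4.70 (4.18 to 5.29) in the control, 3.56 (3.35 to 3.78) at 6 h and 3.34 (2.59 to 4.34) at 30 h. The control ratio lay above that at 6 h beyond counting error over all EC barcodes. It did so too in gCap-like barcodes, defined below by markers, at 7.15 (5.24 to 9.96) against 3.89 (3.44 to 4.40), and in those past no class gate, at 4.92 (3.72 to 6.59) against 3.05 (2.78 to 3.35). The intervals overlapped in artery-like barcodes (5.5 against 2.71), aCap-like barcodes (4.17 against 4.16), vein-like barcodes (3.81 against 4.22) and EC barcodes with fewer than 5 Mt1 UMIs, at 3.79 (3.22 to 4.47) against 3.47 (3.12 to 3.87). In EC barcodes with at least 5 Mt1 UMIs, a set selected on Mt1, the ratio was 5.80 (4.89 to 6.92) against 3.60 (3.34 to 3.88). All these intervals treat UMIs as independent, and the uneven spread over barcodes makes them too narrow. No difference in the ratio is therefore read from them. In empty droplets the ratio was 5.42, 5.28 and 6.86.

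EC barcodes were also sorted into classes by at least 3 distinct markers. General capillary (gCap)-like barcodes numbered 4667, 4754 and 3426 in the control, 6 h and 30 h libraries, aerocyte capillary (aCap)-like barcodes 2107, 1822 and 2156, artery-like 301, 260 and 345 and vein-like 810, 597 and 610. Between 2489 and 3050 barcodes passed no gate. Lymphatic (LEC)-like barcodes were too few for a ratio, between 32 and 43 per library, with Mt1 at 226, 131 and 20.2 CPM on 73, 38 and 6 UMIs. The members played no part in the gates.

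In gCap-like barcodes the Mt1 level was 10.1 CPM in the control, 35.4 CPM at 6 h and 2.47 CPM at 30 h. In aCap-like barcodes it was 9.50, 37.6 and 2.60 CPM. In barcodes that passed no gate it was 12.8, 79.0 and 4.06 CPM. These 3 classes had the order of all EC barcodes, with log2 ratios at 6 h of 1.81 (1.63 to 1.98), 1.98 (1.76 to 2.22) and 2.63 (2.45 to 2.81). At 30 h the log2 ratios against the control were -2.03, -1.87 and -1.66. Mt2 in gCap-like barcodes was at 1.42, 9.11 and 0.495 CPM, a log2 ratio at 6 h of 2.69 (2.24 to 3.16), and in aCap-like barcodes at 2.28, 9.03 and 0.704 CPM, a log2 ratio of 1.99 (1.52 to 2.48).

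Arteries and veins rested on very few barcodes. The Mt1 level in artery-like barcodes was 144 CPM in the control, 32.3 CPM at 6 h and 2.49 CPM at 30 h, so that the control was highest and the log2 ratio at 6 h was -2.15. The control value came from 3 barcodes with 197, 75 and 47 UMIs, together 87.9% of the UMIs of the class, and without the 3 highest barcodes of each library the levels were 17.6, 13.8 and 1.26 CPM and the log2 ratio -0.36. In vein-like barcodes the level was 29.4, 139 and 4.76 CPM, but at 6 h the 3 highest barcodes held 87.3% of the UMIs, and without them the levels were 15.4, 17.7 and 2.23 CPM and the log2 ratio 0.20. The thinned share of barcodes with an Mt1 UMI was 3.38% (1.63 to 6.13), 4.26% (2.15 to 7.50) and 0.291% (0.00736 to 1.61) in artery-like barcodes and 2.97% (1.91 to 4.39), 4.37% (2.87 to 6.34) and 0.657% (0.179 to 1.67) in vein-like ones. In both classes the control and 6 h intervals overlapped. The direction at 6 h also turned with the gate: with 2 markers the log2 ratio of Mt1 in artery-like barcodes was 0.76, and with 4 markers that in vein-like barcodes was -1.06.

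**Figure D3:**
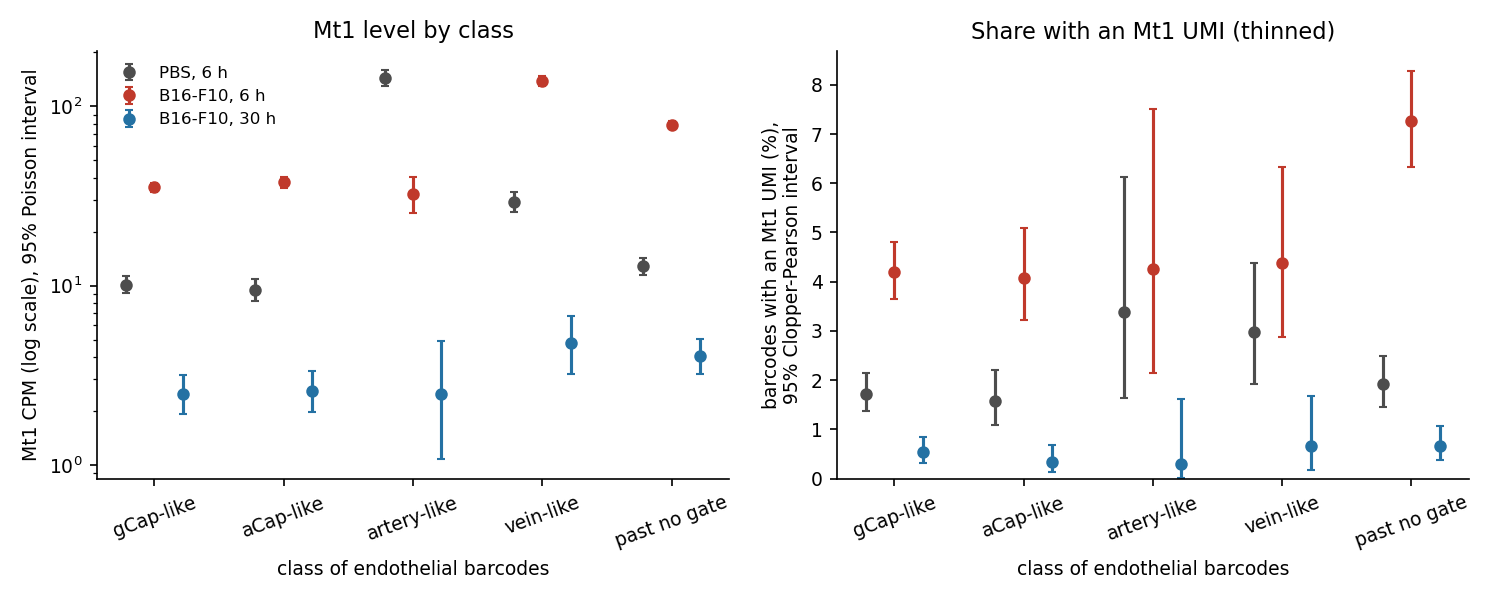
Mt1 by class of EC barcode and library. Left, level in CPM (log axis) with 95% Poisson intervals, and right, share of barcodes with an Mt1 UMI after thinning to 2000 UMIs (%) with 95% Clopper-Pearson intervals. The control lies above the 6 h library in the level of artery-like barcodes (144 against 32.3 CPM), while the shares put 6 h highest and 30 h lowest in each class shown.

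Among the 4 classes with a ratio, Mt1 in the control was highest in artery-like barcodes, then in vein-like barcodes, and the aCap-like level did not differ from gCap-like beyond counting error (log2 ratio -0.09, -0.35 to 0.17). At 6 h vein-like barcodes were highest, and aCap-like and artery-like barcodes did not differ from gCap-like ones beyond it (log2 ratios 0.09, -0.05 to 0.22, and -0.13, -0.49 to 0.20). At 30 h vein-like barcodes were highest (log2 ratio to gCap-like 0.94, 0.27 to 1.59), and the aCap-like and artery-like levels again lay within counting error of gCap-like ones. Without the 3 highest barcodes of each class the order in the control was the same, with artery-like at 17.6, vein-like at 15.4, gCap-like at 8.66 and aCap-like at 7.81 CPM. At 6 h vein-like (17.7 CPM) and artery-like barcodes (13.8 CPM) then lay below gCap-like (29.8 CPM) and aCap-like ones (25.7 CPM). At 30 h the 3 highest vein-like barcodes held 53.3% of the 30 Mt1 UMIs of that class. Without the 3 highest of each class the vein-like level at 30 h was 2.23 CPM, beside 2.25 CPM in gCap-like barcodes.

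Mtf1, the sensor, was nearly level across the libraries. Its level was 29.8 CPM in the control (28.7 to 31.0), 31.2 CPM at 6 h (30.1 to 32.4) and 26.4 CPM at 30 h (25.3 to 27.5). The log2 ratio was 0.066 (-0.011 to 0.14) at 6 h, an interval that holds 0, and -0.18 (-0.26 to -0.095) at 30 h. The level at 30 h lay below the others by more than counting error. Mtf1 had at least 1 UMI in 19.8%, 20.7% and 18.9% of EC barcodes and never more than 5 in a barcode. Its levels in gCap-like barcodes were 30.6, 32.0 and 25.7 CPM and in aCap-like barcodes 33.2, 33.2 and 29.2 CPM, while vein-like barcodes were at 26.9, 24.0 and 24.0 CPM.

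Slc39a14, the importer, also differed little between the libraries. Its level was 12.0 CPM in the control (11.3 to 12.8), 12.2 CPM at 6 h (11.5 to 13.0) and 14.0 CPM at 30 h (13.2 to 14.8). The log2 ratio was 0.025 (-0.098 to 0.15) at 6 h and 0.21 (0.093 to 0.33) at 30 h. The control and 6 h values did not differ beyond counting error, and the 30 h value was higher than both. Among the same 4 classes it was highest in artery-like barcodes in the control, at 21.8 CPM, followed by gCap-like barcodes at 13.7 CPM, vein-like at 9.46 CPM and aCap-like at 8.13 CPM. The aCap-like level lay below the gCap-like level in each library, with log2 ratios of -0.75 (-1.02 to -0.50), -0.55 (-0.81 to -0.29) and -0.73 (-0.97 to -0.49). The vein-like and aCap-like intervals overlapped.

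Slc30a1, the exporter, was present in many ECs. Its level was 77.9 CPM in the control (76.1 to 79.7), 79.3 CPM at 6 h (77.4 to 81.2) and 88.0 CPM at 30 h (86.0 to 90.1). The log2 ratio was 0.026 (-0.022 to 0.074) at 6 h and 0.18 (0.13 to 0.22) at 30 h. As with Slc39a14, control and 6 h did not differ beyond counting error and 30 h lay slightly higher. At least 1 UMI was found in 39.6%, 40.1% and 44.9% of EC barcodes. The aCap-like level, 114, 129 and 128 CPM, was higher than the gCap-like level, 68.4, 67.1 and 73.6 CPM, in each library. Those log2 ratios were 0.73 (0.65 to 0.82), 0.94 (0.86 to 1.02) and 0.79 (0.71 to 0.88). After thinning, 18.4%, 20.5% and 20.9% of aCap-like barcodes held an Slc30a1 UMI, against 12.4%, 11.9% and 12.6% of gCap-like ones. Vein-like barcodes were lowest of the 4 classes in each library, at 57.7, 53.5 and 64.9 CPM. Importer and exporter thus had opposite orders in the capillary classes: Slc39a14 was higher in gCap-like and Slc30a1 in aCap-like barcodes.

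The other zinc transporters were counted against the same limit. Of 14 ZIP importers 9 averaged 5 CPM or more, and 0 of them were past 1.5-fold in any comparison, where the background was 2.06% higher and 1.36% lower at 6 h and 4.85% and 5.01% at 30 h against the control, with a median log2 ratio of 0.035 at 6 h and -0.081 at 30 h against the control. The medians over the 10175 genes were -0.015 and -0.075. By their mean over the libraries the highest ZIP genes were Slc39a1, at 71.5, 93.4 and 64.3 CPM, Slc39a6, at 67.3, 68.9 and 76.9 CPM, and Slc39a10, at 46.1, 55.5 and 55.2 CPM. Of these 9 genes Slc39a1, a plasma membrane zinc importer, had the log2 ratio farthest from 0 at 6 h, 0.38. Of 10 ZnT transporters, most of which move zinc out of the cytosol, 6 were tested and 0 were past 1.5-fold, with medians of 0.048 and -0.12. A count of 0 among so few genes is near these background shares. Beside Slc30a1 the highest were Slc30a9, at 58.1, 58.8 and 55.0 CPM, and Slc30a5, a transporter of the secretory pathway, at 39.6, 41.4 and 33.5 CPM. With no filter on level beyond 1 UMI in each library, far more genes passed 1.5-fold in either direction (4282 at 6 h).

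**Figure D4:**
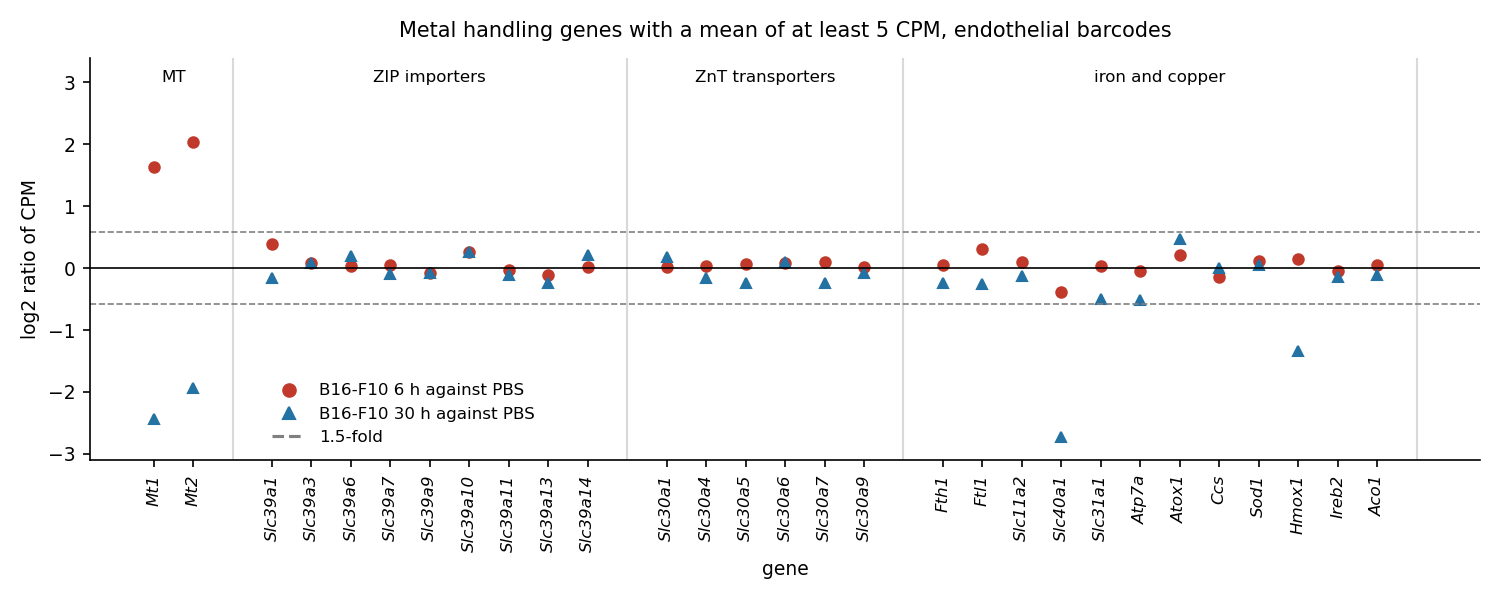
Log2 ratios of CPM against the control at 6 h (circles) and 30 h (triangles) in EC barcodes for the metallothioneins (MT), ZIP importers, ZnT transporters and iron and copper genes that averaged 5 CPM or more, dashed lines marking 1.5-fold. The metallothioneins lie past the lines at both times (1.63 and -2.44 for Mt1), the zinc transporters lie within them, and Slc40a1 and Hmox1 lie past the lower line at 30 h.

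Of the genes that MTF1 is known to control, Gclc, a subunit of the enzyme that starts glutathione synthesis, was at 150, 141 and 39.0 CPM, lower at 30 h by a log2 ratio of -1.94, while Slc39a10 and Slc30a1 were within 1.5-fold. Of 14 genes of iron and copper handling 12 were tested. At 6 h 0 were past 1.5-fold (median 0.046), and at 30 h 0 were higher and 2 lower (median -0.19), beside the 2.06% and 1.36% of all tested genes at 6 h and the 4.85% and 5.01% at 30 h. The lower genes were the iron exporter Slc40a1, at 31.5, 24.2 and 4.77 CPM, and the haem oxygenase Hmox1, at 17.4, 19.3 and 6.86 CPM. Hmox1 and Gclc are counted again among the NRF2 genes below. The highest of the list, the ferritin subunits Fth1 (1880, 1942 and 1594 CPM) and Ftl1 (1322, 1646 and 1102 CPM) and the copper chaperone Atox1 (229, 265 and 317 CPM), stayed within 1.5-fold.

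Lists of other stimuli known to act on metallothionein genes were counted beside the same background, 2.06% higher and 1.36% lower at 6 h and 4.85% higher and 5.01% lower at 30 h. Of 13 IL-6 and STAT3 response genes tested, 3 were higher and 0 lower at 6 h (median 0.47), Bcl3 (log2 ratio 1.35) and Socs3 (0.62) the most, and 0 were higher and 5 lower at 30 h (median -0.50), with Lcn2 at -2.12 and Pim1 at -1.02. Of 11 glucocorticoid-induced genes 0 were higher and 6 lower at 6 h (median -0.66), Fam107a (-1.34) and Zbtb16 (-1.13) the most. At 30 h 2 were higher, Ddit4 (0.93) and Per1 (0.80), and 2 lower, Fkbp5 (-1.49) and Fam107a (-1.41), with a median of -0.25.

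Of 12 heat shock genes 11 were higher and 0 lower at 6 h (median 0.98), led by Hspa1b (2.69) and Hspa1a (2.34), and at 30 h 1 was higher (Hsph1, 0.69) and 2 were lower (Hspa1b, -0.73, and Bag3, -0.64), with a median of 0.27. Of 12 immediate early genes 5 were higher and 0 lower at 6 h (median 0.44), Atf3 (1.61) and Egr1 (0.85) the most, and 1 was higher (Nr4a1, 0.65) and 4 lower at 30 h (median -0.48), Fosb (-0.88) and Fos (-0.80) the most. Of 8 genes controlled by the oxidant sensor NRF2, 0 were past 1.5-fold at 6 h (median -0.055) and 0 were higher and 7 lower at 30 h (median -1.81), with Nqo1 at -3.09 and Srxn1 at -2.70. Heat shock and immediate early genes also respond to tissue digestion, and 11 of 12 and 5 of 12 of them were past the limit at 6 h, where the metallothioneins were highest. Their part in the metallothionein levels was not tested. In EC barcodes with no UMI of Hspa1a, Hspa1b or Atf3 the log2 ratio of Mt1 was 1.73 at 6 h and -2.11 at 30 h, against 1.63 and -2.44 in all EC barcodes. That of Mt2 was 2.07 and -1.30, against 2.03 and -1.94. Atf3 alone was at 180, 550 and 128 CPM in EC barcodes of the control, 6 h and 30 h libraries. The filter can therefore keep unlike parts of the libraries, and a lack of these UMIs also depends on depth. Nothing about digestion is read from these values.

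Across the 12 sums of library by class (3 libraries, 4 classes), genes whose log2(CPM + 1) followed Mt1 closely among 10234 included Mt2 (Pearson r = 0.99), Lin9 (0.91), Ctbp2 (0.91) and Slc30a7 (0.90), the last a ZnT transporter of the Golgi. For the other members r with Mt1 was 0.05 (Mtf1), -0.01 (Slc39a14) and -0.29 (Slc30a1). The highest Mt1 points were artery-like barcodes in the control (144 CPM) and vein-like barcodes at 6 h (139 CPM). In each, 3 barcodes held most of the Mt1 UMIs, 87.9% and 87.3%. The points also share libraries, so r is a description only. For Slc30a7 the levels behind it in all EC barcodes were 34.4, 36.8 and 29.1 CPM.

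ECs with Pim3, Bcl3 and Tmem252 all detected numbered 418, 1141 and 390 in the control, 6 h and 30 h libraries. Their Mt1 level was 20.8, 55.3 and 8.20 CPM against 17.6, 54.8 and 3.00 CPM in the other EC barcodes, so at 6 h the log2 ratio was 0.01 (-0.11 to 0.13), while at 30 h the former had the higher level on 35 UMIs. After thinning, however, 6.85% (5.45 to 8.47) of the former held an Mt1 UMI at 6 h, against 4.92% (4.49 to 5.38) of the other EC barcodes. At 30 h the thinned shares were 1.03% (0.280 to 2.61) and 0.490% (0.355 to 0.659), and their intervals overlapped.

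Mt1 was also measured outside the ECs. Barcodes with at least 3 markers of another lineage and fewer than 2 UMIs of Pecam1 and Cdh5 numbered 409, 530 and 455. Mesenchymal ones (54, 45 and 38 barcodes) held Mt1 at 1007, 2648 and 105 CPM, epithelial ones (55, 33 and 34) at 810, 634 and 920 CPM and immune ones (12, 37 and 31) at 1386, 328 and 815 CPM. Barcodes with platelet markers, the most numerous (298, 423 and 362), held it at 578, 506 and 9.51 CPM. A barcode with markers of several lineages counted in each of them. Mt1 was thus highest at 6 h and lowest at 30 h in the mesenchymal barcodes as in the ECs, but not in the epithelial, immune or platelet ones. In the control the immune, epithelial, mesenchymal and platelet sets held 314, 403, 494 and 213 Mt1 UMIs, but 943 with each barcode counted once. At 30 h the immune and epithelial sets held 660 and 869, beside 1131 over all sets with each barcode counted once. The sets thus share barcodes with many Mt1 UMIs. Only 47 of the 409 control barcodes held any Mt1 UMI. The mesenchymal, epithelial and immune sets are also small. A few barcodes may set the level of each set, platelet included, so these orders are a description only. Slc39a14 in mesenchymal barcodes was at 67.3, 177 and 15.7 CPM, against 12.0, 12.2 and 14.0 CPM in the ECs. It was thus higher in the mesenchymal barcodes of the control and 6 h libraries. The 30 h value rests on 38 barcodes and lay close to the EC level, so no difference is read from it. Slc30a1 was counted over the barcodes of all other lineages, not the mesenchymal ones alone. At 21.5, 15.8 and 8.90 CPM it was below the ECs.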

How the data were processed

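The data were droplet single-cell 3′ RNA-seq libraries, 1 per group, of sorted mouse lung cells. The study's methods name Chromium v2 reagents, and the kit version was not checked here. The authors deposited UMI counts per gene and barcode, all barcodes included, made with Cell Ranger on mm10 (the submitters' processing notes name Cell Ranger 7.2.0 and Seurat 4.4.0, while the study's methods name an earlier Cell Ranger version). Which version made the counts was not settled. The libraries held 140601123, 132566934 and 124085451 UMIs. The labels give 2 mice per treatment, while the study's methods give 3 for the experiment with a 30 h sample.

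From the deposited counts, EC barcodes, marker classes and empty droplets were selected as stated. UMIs were summed and divided by all UMIs of the same barcodes (CPM). Intervals were exact Poisson for levels, conditional binomial for ratios and Clopper-Pearson for shares, and cover counting error only. Ratios past 1.5-fold were counted among genes averaging 5 CPM or more. The code was tested on simulated data. No doublet caller was run: the 5000-gene limit was applied, and leaving out barcodes with markers of another lineage and the 10% with most UMIs was an alternative. The epithelial yardstick used Scgb1a1, Sftpc, Sftpb, Sftpa1 and Cyp2f2, the haemoglobin one Hba-a1, Hba-a2, Hbb-bs and Hbb-bt. Other-lineage barcodes had at least 3 markers. Of 32285 features 99.6% were found in GENCODE M21.

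Members and lists were chosen with earlier results of these data known. Named were the members, of the metal lists the genes past the limit and the 3 highest, of the other lists the 2 with the largest ratio each way, and the 5 most like Mt1, of which 1 is not reported here. Tools were Python 3.11.15, numpy 2.4.6, pandas 2.3.3, scipy 1.17.1 and matplotlib 3.10.9.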

Additional observations from a re-analysis of the deposited data

Results flagged for a closer look

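In artery-like barcodes the metallothioneins lay on the other side of the control at 6 h than in gCap-like, aCap-like and vein-like barcodes. The log2 ratio of Mt1 was -2.15 (-2.53 to -1.79) and that of Mt2 -1.13 (-1.83 to -0.48), against 1.81 and 2.69 in gCap-like barcodes. The difference between classes was not tested, and the direction turned with the gate, Mt1 being at 0.76 in artery-like barcodes with 2 markers and at -1.06 in vein-like barcodes with 4. In the control 3 artery-like barcodes held 197, 75 and 47 of the 363 Mt1 UMIs, while 20 of 301 artery-like barcodes held an Mt1 UMI in the control and 26 of 260 at 6 h.

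Melanoma-like barcodes, with at least 4 of 8 melanoma markers, were not compared as a group. The 6 h library held 43 of them, with Mt1 at 613 CPM (558 to 673) and Mt2 at 90.3 CPM (69.9 to 115), and the control and 30 h libraries held 0. Mt1 was detected in 88.4% of them and Mt2 in 48.8%, Slc30a1 was at 27.4 CPM and Mtf1 at 17.8 CPM. The labels name melanoma cells for the 6 h library, while the text on treatment speaks of collecting them from metastatic lungs without a time. The EC selection set no limit on melanoma markers, so melanoma-like barcodes that met it stayed among the EC barcodes at 6 h. How many did was not counted. The part of melanoma RNA in the Mt1 level of EC barcodes or of empty droplets at 6 h was not tested.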

How the results depend on the processing

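Mt1 and Mt2 kept their direction in all 3 comparisons under every alternative that gave a value, between 16 and 17 per result, and stayed past 1.5-fold except for Mt2 at 30 h with 10 added to the CPM. Mtf1 and Slc39a14 at 30 h and Slc30a1 at 30 h kept their direction, and no alternative took these genes past 1.5-fold, while Slc39a14 at 6 h had the same sign in 10 of 17. For log2 ratios against the control, in the order Mt1 at 6 h, Mt1 at 30 h, Mt2 at 6 h and Mt2 at 30 h, all 4 moved with 10 added to the CPM (1.23, -1.06, 0.88, -0.33), in gCap-like barcodes (1.81, -2.03, 2.69, -1.52), in barcodes past no gate (2.63, -1.66, 3.32, -0.89) and with each barcode counted at most once (1.43, -1.71, 1.70, -1.53). With thinning to 2000 UMIs the first 3 were 1.82, -2.24 and 2.24, with epithelial free RNA subtracted 1.81, -3.06 and 2.35, and without the 1% of barcodes with most UMIs 1.83, -2.74 and 2.80. With 1 added to the CPM the last 3 were -2.13, 1.78 and -1.27. Barcodes of 300 or more genes gave 1.49 and -1.12 for Mt1 and -1.18 for Mt2 at 30 h, and barcodes with no Hspa1a, Hspa1b or Atf3 UMI 1.73, -2.11 and -1.30. Mean CPM per barcode gave 1.72 for Mt1 at 6 h, and haemoglobin free RNA subtraction 2.07 for Mt1 and 2.62 for Mt2 at 6 h, with no Mt1 value at 30 h, where the subtracted amount exceeded the level. For Mt2, leaving out barcodes with other-lineage markers or most UMIs gave 1.79 at 6 h and -2.43 at 30 h, and a limit of 10% mitochondrial UMIs -2.37 at 30 h. The cause of these shifts was not tested. Counting each barcode once, haemoglobin subtraction and leaving out the highest barcodes were chosen after seeing the data.

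Genes past the limit numbered 348 at 6 h, 1003 at 30 h and 1067 between 6 h and 30 h. They were 4282, 5933 and 6139 with at least 1 UMI in each library, 170, 568 and 591 at 20 CPM, and 60, 208 and 272 at 2-fold. With 2 markers per gate the log2 ratio of Mt1 at 6 h in artery-like barcodes reversed to 0.76, and with 4 markers that in vein-like barcodes reversed to -1.06. In empty droplets of 10 to 200 UMIs Mt1 was at 178, 457 and 48.2 CPM. Depth limits Mt2 at 30 h, with 80 UMIs. No paired analysis was possible because the result comes from no test.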
